A study of Rattus norvegicus with 35 samples.

Results

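The angiotensin and endothelin systems were followed through 8 genes chosen by name and role: the angiotensin precursor Agt, the converting enzymes Ace and Ece1, the endothelin-1 precursor Edn1, and the receptors Agtr1a, Agtr2, Ednra and Ednrb. Of these 8 genes, 7 had a probe set on the array, with 10 probe sets in all, out of 14218 genes and 31042 probe sets measured. Ednrb matched no probe set and was not analysed here. Ednra took its probe set from the study's own gene list, because the array annotation leaves that probe set without a gene, and the other 6 genes took theirs from the annotation.

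Both systems make small peptides that act on blood vessels and heart. Angiotensinogen, the product of Agt, is processed to angiotensin I, which angiotensin-converting enzyme (Ace) cuts to angiotensin II, which acts mainly through the AT1 receptor (Agtr1a and, in rodents, its near-identical copy Agtr1b) and also binds the AT2 receptor (Agtr2). Preproendothelin-1, the product of Edn1, is processed to big endothelin-1 and cut by endothelin-converting enzyme (Ece1) to endothelin-1, which binds the A and B receptors (Ednra, Ednrb). The AT1 and endothelin A receptors couple to Gq, and in cultured heart muscle cells both peptides are known to provoke hypertrophic growth.

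The cells were neonatal rat ventricular myocytes (NRVMs), taken from Sprague-Dawley pups of both sexes aged 2 to 4 days. They were enriched for myocytes by pre-plating and grown on flexible-bottomed wells, where a computer-driven vacuum stretched the well floor in cycles. Total RNA was read on Affymetrix whole-genome rat arrays. Set I held unstretched control cells and cells stretched for 1, 4 and 12 h (20 arrays), and set II held its own unstretched controls and cells stretched for 24 and 48 h (15 arrays). Each of the 7 groups had 5 arrays, described by the submitters as biological replicates. No group carried a drug or a genetic change. The control labels carry the letter a or b, which was read as set I or set II. Levels were compared within a set and not across the sets. Values are Robust Multichip Average (RMA) intensities as deposited, listed by array from replicate 1 to replicate 5, and replicate numbers name arrays without an order. The log2 fold changes are stretched over control unless another pair is named, and every adjusted p comes from limma with Benjamini-Hochberg adjustment over the 31042 probe sets of a comparison.

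Arrays of a group correlated closely, with a mean correlation of an array with the others of its group between 0.9924 and 0.9979 over all probe sets. Of 10 cardiomyocyte marker genes 9 had a probe set, and none of them changed by 1.5-fold or more at any time. At an adjusted p under 0.05, however, 2, 3, 4, 4 and 5 of the 9 were lower after 1, 4, 12, 24 and 48 h and 0, 0, 0, 1 and 1 were higher. Of all probe sets 7.52%, 15.2%, 16.9%, 9.13% and 16% were lower and 6.32%, 14.2%, 16.3%, 9.14% and 16.9% higher at these times. The summed intensity of the 9 markers lay wholly below the controls after 12 h (115564 to 119205 in stretched cells, 122106 to 127707 in controls) and after 48 h (105531 to 111596 in stretched cells, 117264 to 120080 in controls). Cardiac fibroblast markers gave a signal too, with a summed intensity of 70989 to 76031 in the controls of set I and 75446 to 78632 in those of set II. RMA gives each probe set an intensity above 0, so no marker could be called absent. In such mixed cultures, fewer cells of a type and less RNA per cell cannot be told apart.

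The clearest response was that of the angiotensin II receptor Agtr1a, which was lower at all 5 times and in both sets. Its brightest probe set fell to 0.70 of the control level after 1 h, 0.35 after 4 h and 0.20 after 12 h in set I, and to 0.42 after 24 h and 0.24 after 48 h in set II. Edn1 was lower after 12 h, and Ednra was lower after 48 h and, by a small margin, after 1 h. Agt, Agtr2 and Ece1 passed the test at no time, and Ace passed it after 12 h on 1 of its 2 probe sets.

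Each gene was counted by its brightest probe set. Of the 7 genes, 2 passed an adjusted p of 0.05 after 1 h (Agtr1a and Ednra), 1 after 4 h (Agtr1a), 2 after 12 h (Agtr1a and Edn1), 1 after 24 h (Agtr1a) and 2 after 48 h (Agtr1a and Ednra), all of them lower in stretched cells. Over all probe sets 13.8%, 29.4%, 33.2%, 18.3% and 32.9% passed after 1, 4, 12, 24 and 48 h, of which 7.52%, 15.2%, 16.9%, 9.13% and 16% of all probe sets were lower. These shares include probe sets without a gene and further probe sets of a gene. With 1 probe set per gene, as the 7 were counted, a larger share passed: 2746, 5579, 5916 and 6231 of 14218 genes after 1, 4, 12 and 48 h. At 1.5-fold or more, 0, 1, 2, 1 and 2 of the 7 genes passed at these times, against 1.31%, 3.07%, 4.23%, 2.91% and 7.46% of all probe sets. Stretched and control arrays did not overlap for 13.9%, 20.7%, 27.9%, 13.4% and 24.4% of all probe sets. With 7 genes, these counts describe the genes one by one and were not tested as a group.

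**Figure D1:**
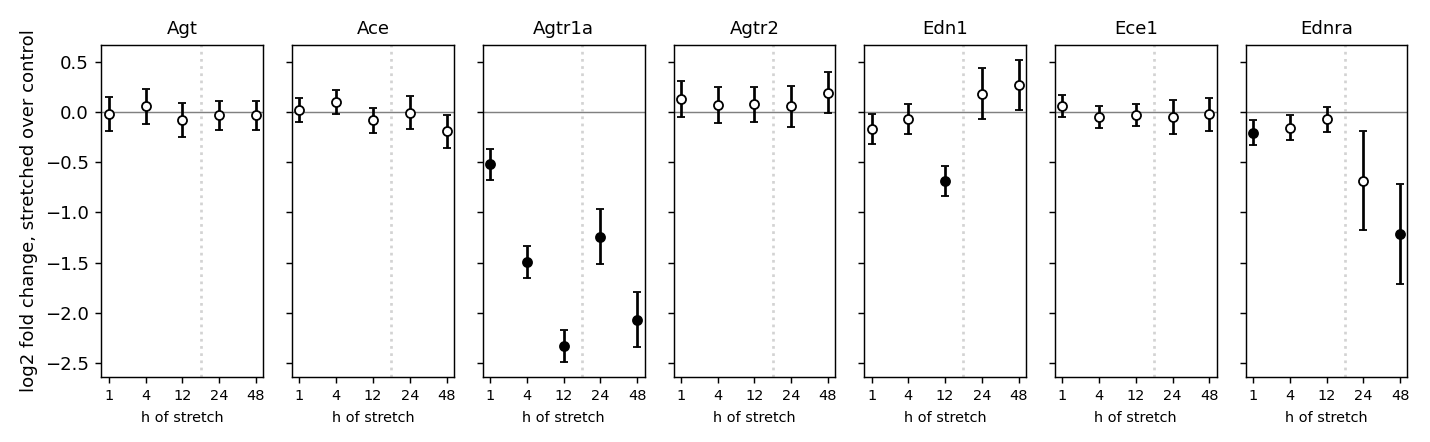
Log2 fold change of stretched over unstretched NRVMs (y axis) after 1, 4, 12, 24 and 48 h (x axis) for the brightest probe set of each gene, n = 5 arrays a group. Bars are 95% confidence intervals of the limma fit, filled points passed an adjusted p of 0.05, and the dotted line parts set I from set II, which have separate controls. The filled points are Agtr1a at every time, Edn1 after 12 h, and Ednra after 1 h and 48 h, all of them below 0.

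Agtr1a encodes the type 1a angiotensin II receptor, the receptor through which most known actions of angiotensin II run. In set I its brightest probe set, 1384240_at, read 2252, 2200.2, 2273, 2174 and 2215 in the 5 control arrays. After 1 h of stretch it read 1468, 1446, 1680.1, 1515 and 1637. After 4 h it read 791, 771, 784, 807 and 789, and after 12 h it read 543, 362, 449, 403 and 477. Each later group lay wholly below the one before it, so no array of any group in the set overlapped an array of another. The fall was already past the test after 1 h (log2 fold change -0.52, SE 0.075, adjusted p = 5.02e-05), and it was larger after 4 h (log2 fold change -1.50, SE 0.075, adjusted p = 1.17e-11) and after 12 h (log2 fold change -2.33, SE 0.075, adjusted p = 2.25e-14).

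The steps between times were tested directly. The level after 4 h was below that after 1 h (4 h over 1 h, log2 fold change -0.97, SE 0.075, adjusted p = 2.22e-08), and the level after 12 h was below that after 4 h (12 h over 4 h, log2 fold change -0.83, SE 0.075, adjusted p = 2.3e-07). Agtr1a was the sole one of the 7 genes to pass the 4 h over 1 h comparison, which 13.3% of all probe sets passed. The 12 h over 4 h and 12 h over 1 h comparisons were passed by 9.38% and 21.4% of all probe sets, and by 3 and 2 of the genes (Agtr1a and Edn1 in both, and Ace in 12 h over 4 h). The 12 h arrays lay at 362 to 543, a wider spread in proportion than that of the control arrays, which lay at 2174 to 2273.

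In set II the same probe set read 1439, 1536, 1449, 1622 and 1364 in control arrays, 828, 563, 611, 571 and 587 after 24 h and 389, 381, 272, 452 and 300.4 after 48 h. Again no stretched array reached a control array, and the 48 h arrays lay below all 24 h arrays. The change was -1.24 on the log2 scale after 24 h (SE 0.13, adjusted p = 1.44e-05) and -2.07 after 48 h (SE 0.13, adjusted p = 1.32e-08). The 48 h level was below the 24 h level (48 h over 24 h, log2 fold change -0.83, SE 0.13, adjusted p = 0.00107). This comparison was passed by no other of the 7 genes and by 6.11% of all probe sets. The 24 h and 48 h cells have other controls than the cells of set I, so the depth of the fall after 12 h and after 24 h was not compared.

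The second Agtr1a probe set, 1369291_at, moved the same way. Its set I arrays read 839.7, 855, 987, 806 and 873 in controls, 646, 589, 725, 592 and 647 after 1 h, 363, 355, 366, 387 and 308 after 4 h and 238, 190.4, 214, 177 and 219 after 12 h. No group of the set overlapped another, and the log2 fold changes were -0.45 after 1 h (adjusted p = 0.000543), -1.29 after 4 h (adjusted p = 2.56e-10) and -2.08 after 12 h (adjusted p = 2.17e-13). In set II it read 751, 678, 821, 594 and 705 in controls, 438, 204, 352, 161 and 271 after 24 h and 174, 172, 117, 211 and 118 after 48 h. Both stretched groups lay below the controls, with log2 fold changes of -1.40 after 24 h (adjusted p = 0.000476) and -2.19 after 48 h (adjusted p = 1.69e-06), but the 24 h and 48 h arrays overlapped and their difference missed the test (48 h over 24 h, log2 fold change -0.80, SE 0.23, adjusted p = 0.0504).

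**Figure D2:**
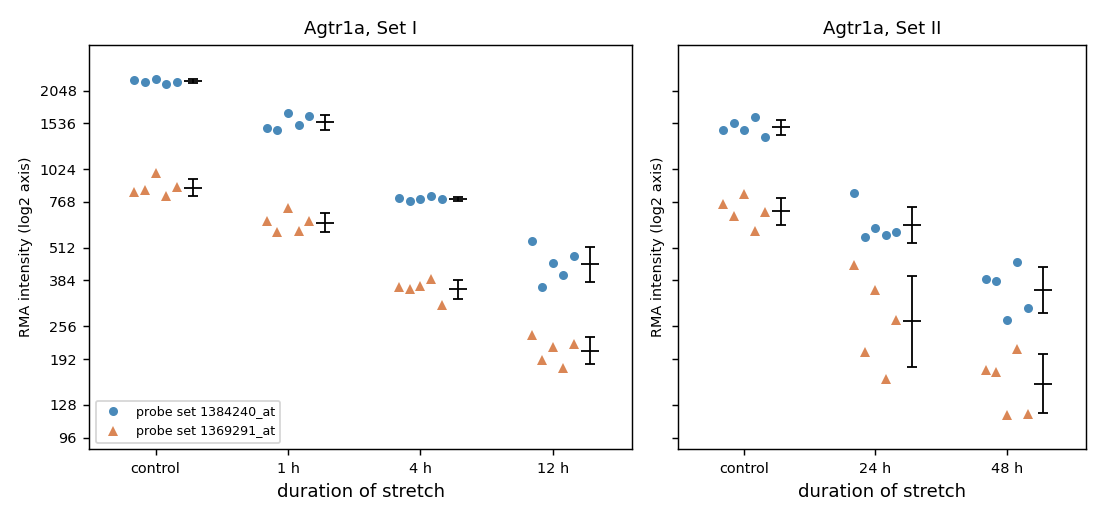
RMA intensity of Agtr1a (y axis, log2 scale) in each array by duration of stretch (x axis), set I on the left and set II on the right. Circles are probe set 1384240_at, triangles probe set 1369291_at, and the black marks give the mean of the log2 values with 1 SD (n = 5). In set I the circles of the 12 h group lie at 362 to 543 and those of the controls at 2174 to 2273.

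Agtr1a and Agtr1b are near-identical paralogs, so a probe set of Agtr1a may also read Agtr1b RNA. The probe set that the annotation gives to Agtr1b, 1369439_at, was dim (9.4 to 16.6 over all 35 arrays) and passed the test at no time, with log2 fold changes from -0.06 after 48 h to 0.26 after 1 h (adjusted p = 0.372 and 0.0969).

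The sequence upstream of Agtr1a is shown because this gene changed at every time. RefSeq places the gene on the minus strand of chromosome 17 in rat assembly GRCr8, and the 159 bases between the table's upstream limit and the annotated end of the gene (chr17:34435524-34435682, 5′ to 3′ on the strand of the gene) are:
Agtr1a: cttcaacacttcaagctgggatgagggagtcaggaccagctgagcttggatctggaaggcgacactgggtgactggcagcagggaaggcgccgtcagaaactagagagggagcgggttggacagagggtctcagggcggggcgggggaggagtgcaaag
The whole 250 bases that the table gives before its start were searched, of which 91 lie inside the annotated span of Agtr1a and are not printed. The search covered both strands and looked for an AP-1 site (TGACTCA), a cyclic AMP response element (TGACGTCA) and a GATA site (AGATAA), none of which overlaps another by its letters. None of the 3 was found before Agtr1a, which says no more than that these letters are not in the window.

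Agtr1a stood beside other genes with a like course. Over the 35 arrays, each taken relative to the mean of its own controls, the genes that correlated most closely with Agtr1a among 14217 others were Kctd12 (Pearson r = 0.98), Mylk, the myosin light chain kinase of smooth muscle (r = 0.98), and Fam180a (r = 0.96). Kctd12 had log2 fold changes of -0.33, -0.78, -1.16, -0.75 and -1.19 after 1, 4, 12, 24 and 48 h. For Mylk they were -0.23, -0.70, -1.17, -0.72 and -1.02. The order of the times within each set was the same as for Agtr1a, with smaller falls on these probe sets at every time. These genes were picked for their likeness, and the arrays share their normalization, so the values are a description.

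Markers of other cell types moved in the same comparisons, and their counts are to be read beside the shares of all probe sets given above. Of 9 cardiac fibroblast markers, 2, 6, 6, 1 and 6 were lower after 1, 4, 12, 24 and 48 h, and 1 was higher after 24 h. The one that changed most was Pdgfra, a growth factor receptor of fibroblasts, which read 2059, 1866, 2065, 1788 and 2024 after 12 h and 4169.6, 4162, 4315, 4457 and 3911 in its controls. Its log2 fold change was -0.53 after 1 h, -1.17 after 4 h, -1.10 after 12 h, -0.64 after 24 h and -1.04 after 48 h. The summed intensity of the 9 markers differed less, at 65996 to 69675 in stretched cells and 70989 to 76031 in controls after 12 h, and at 63681 to 71510 in stretched cells and 75446 to 78632 in controls after 48 h. It also lay below the controls after 4 h (64441 to 68896 in stretched cells) and after 24 h (70702 to 74338 in stretched cells). After 1 h it overlapped them (68692 to 71037 in stretched cells). Of 10 smooth muscle and pericyte markers, Mylk among them, 3 were higher and 3 lower after 1 h (summed intensity 9358 to 10171 in stretched cells, 8208 to 8942 in controls), and 4 were higher and 4 lower after 4 h (9020 to 10638 in stretched cells), when Agtr1a was already lower. After 12 h 1 was higher and 4 were lower (summed intensity 7263 to 8199 in stretched cells, 8208 to 8942 in controls). In set II, 4 were higher and 3 lower after 24 h (6545 to 9198 in stretched cells, 6313 to 7843 in controls), and 4 were higher and 4 lower after 48 h (7489 to 8241 in stretched cells). The part of these cells in the Agtr1a result was not tested.

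Edn1 encodes the precursor of endothelin-1. Its probe set 1369519_at read 96.5, 107, 113, 102 and 105 in set I controls, 96.0, 92.8, 99.6, 87.5 and 88.5 after 1 h, 92.4, 105, 110.4, 108 and 84.5 after 4 h and 72.0, 63.9, 65.0, 57.7 and 66.4 after 12 h. The control, 1 h and 4 h arrays overlapped, and all 5 arrays of 12 h lay below every other array of the set. After 12 h the level was 0.62 of control (log2 fold change -0.69, SE 0.071, adjusted p = 2.21e-07). After 1 h and 4 h the test was not passed (-0.17, 95% confidence interval -0.32 to -0.02, adjusted p = 0.131 and -0.07, interval -0.22 to 0.08, adjusted p = 0.538). The 12 h level was also below that of the earlier times (12 h over 4 h, log2 fold change -0.62, SE 0.071, adjusted p = 6.3e-06 and 12 h over 1 h, log2 fold change -0.52, SE 0.071, adjusted p = 1.94e-05).

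In set II, Edn1 read 60.5, 51.4, 69.8, 58.7 and 83.7 in controls, 86.0, 73.2, 66.9, 67.4 and 69.8 after 24 h and 75.0, 69.8, 66.9, 91.5 and 83.6 after 48 h, and the groups overlapped. The control array of replicate 5 was the highest of its group and lay above 8 of the 10 stretched arrays. Neither time passed the test, with a log2 fold change of 0.18 after 24 h (interval -0.07 to 0.43, adjusted p = 0.353) and 0.27 after 48 h (interval 0.01 to 0.52, adjusted p = 0.102). Without that control array the 48 h value was 0.36 and passed the test (adjusted p = 0.0165). The fall after 12 h and the values of set II differ in sign, and that difference was not tested, since the sets have separate controls.

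Endothelin-1 is best known as a product of endothelial cells. Of 9 endothelial markers measured, 6 were lower and none higher after 12 h (median log2 fold change -0.33, summed intensity 2011 to 2370 in stretched cells and 2557 to 3065 in controls). After 4 h, when Edn1 did not pass the test, 5 of the 9 were lower (summed 2030 to 2465 in stretched cells and 2557 to 3065 in controls). After 48 h 8 of the 9 were lower (median -0.60, summed 2649 to 2829 in stretched cells and 3574 to 4645 in controls), at a time when the Edn1 value was above 0. Their part in the Edn1 result was not tested.

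The upstream sequence of Edn1 is shown because among the 7 genes with a promoter entry, each searched over its whole 250 bases, it alone held any of the 3 motifs. All 250 bases of the Ednra entry lie inside the annotated span of that gene, so they were searched but not printed. The Edn1 entry is on the minus strand of chromosome 17 in GRCr8 (chr17:22666688-22666937, RefSeq), and capitals mark the GATA match, read from the other strand, 214 bases before the start:
Edn1: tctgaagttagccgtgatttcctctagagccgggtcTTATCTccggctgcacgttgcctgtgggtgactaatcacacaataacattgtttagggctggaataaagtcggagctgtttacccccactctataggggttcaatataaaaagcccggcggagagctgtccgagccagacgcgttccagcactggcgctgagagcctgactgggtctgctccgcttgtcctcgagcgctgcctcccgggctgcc
A GATA match occurred in 10.3% of the 33469 promoters, searched over the same 250 bases, an AP-1 match in 4.05% and a cyclic AMP response element match in 1.59%. Ednrb is counted among these 7 genes, and Agt had no entry. A match describes letters in the window and no site.

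Among 14217 other genes, those that correlated most closely with Edn1 over the 35 arrays were Col14a1, a collagen (Pearson r = 0.83), Bmp4, a growth factor of the TGF-beta family (r = 0.81), and Slc12a7, a potassium-chloride cotransporter (r = 0.81). Their log2 fold changes after 12 h were -0.31, -0.41 and -0.26, smaller than that of Edn1, and like Edn1 all of them lay above 0 after 48 h (0.12, 0.13 and 0.20). Of these 48 h values only that of Slc12a7 passed the test (adjusted p = 0.013). The signs differed at other times. After 1 h Edn1 lay at -0.17 and Bmp4 at -0.15, but Col14a1 at 0.02 and Slc12a7 at 0.05. After 4 h Slc12a7 alone lay above 0 (0.05). After 24 h Edn1, Col14a1 and Slc12a7 lay at 0.18, 0.19 and 0.05, and Bmp4 at -0.06. The correlations with Edn1 were looser than those found for Agtr1a.

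Ednra encodes the endothelin A receptor. Probe set 1393415_at read 441, 483, 491, 417 and 459 in set I controls and 419, 377, 445, 371 and 373 after 1 h. It read 407, 421, 436, 419 and 371 after 4 h and 403, 435, 450.3, 440.0 and 442 after 12 h. All groups of the set overlapped the controls. The 1 h level passed the test by a small margin (log2 fold change -0.21, SE 0.060, adjusted p = 0.0232), and the 4 h and 12 h levels did not (-0.16, adjusted p = 0.0557 and -0.08, adjusted p = 0.381). The 1 h call was lost when replicate 2 or 3 of the controls, or replicate 2, 4 or 5 of the 1 h group, was left out (adjusted p = 0.0663, 0.0693, 0.0644, 0.0681 and 0.061), and the 4 h value passed without control replicate 4, 1 h replicate 3 or 4 h replicate 3 (adjusted p = 0.0262, 0.0389 and 0.0437).

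In set II, Ednra read 891, 809.9, 1054, 666 and 891 in controls, 796, 443, 742, 284 and 563 after 24 h and 404, 407, 343, 461 and 257 after 48 h. The 48 h arrays all lay below the controls, at 0.43 of the control level (log2 fold change -1.22, SE 0.23, adjusted p = 0.000657). The 24 h arrays were widely spread, from 284 in replicate 4 to 796 in replicate 1, and overlapped both the controls and the 48 h arrays. Their mean was lower than that of controls but missed the test (log2 fold change -0.69, SE 0.23, adjusted p = 0.0519), and the 24 h and 48 h levels were not separated either (48 h over 24 h, log2 fold change -0.53, SE 0.23, adjusted p = 0.229).

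The Ednra result after 24 h turned on single arrays. It passed the test when control replicate 4, 24 h replicate 1, 24 h replicate 3 or 48 h replicate 5 was left out (adjusted p = 0.0397, 0.0188, 0.029 and 0.0445), and the step between 24 h and 48 h passed without 24 h replicate 4 (48 h over 24 h, -0.75, adjusted p = 0.0247). The 5 arrays of 24 h ranked by Ednra stood in the same order as by Agtr1a probe set 1369291_at, with replicate 1 highest and replicate 4 lowest, and the same was true of the 5 control arrays of set II, with replicate 3 highest and replicate 4 lowest. On the brighter Agtr1a probe set, 1384240_at, the order differed in both groups, and control replicate 4 was the highest there. In the 48 h group and in each group of set I, the order by Ednra differed from that by 1369291_at. The shared order was noticed after the values were seen.

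**Figure D3:**
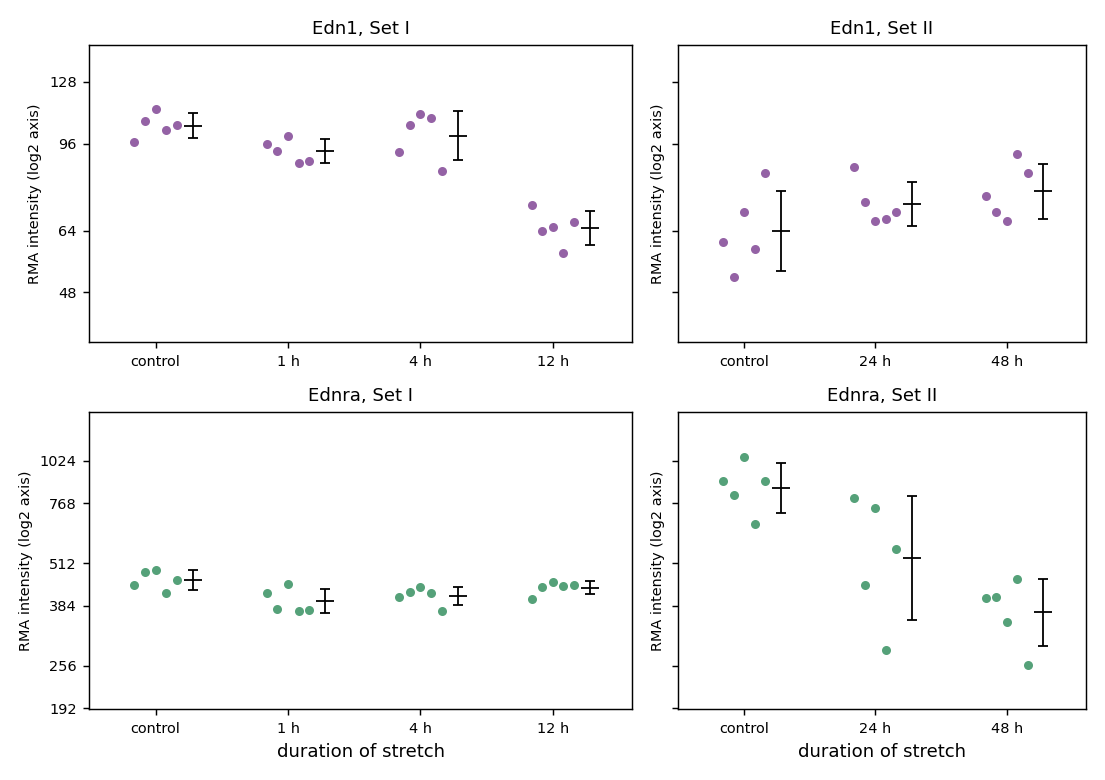
RMA intensity (y axis, log2 scale) of Edn1 (top) and Ednra (bottom) in each array by duration of stretch (x axis), set I on the left and set II on the right. Points are arrays and black marks the mean of the log2 values with 1 SD (n = 5). The 12 h arrays of Edn1 (57.7 to 72.0) lie below its controls (96.5 to 113), and the 48 h arrays of Ednra (257 to 461) lie below its controls (666 to 1054).

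The genes closest to Ednra over the 35 arrays were Cd36, a fatty acid transporter (Pearson r = 0.97), Cxcl6, a chemokine (r = 0.96), and Pdzd2 (r = 0.95). After 24 h their log2 fold changes were -0.70, -0.96 and -0.85, and after 48 h -1.14, -1.56 and -1.13. Their standard errors after 48 h were as wide as that of Ednra (0.24, 0.30 and 0.27, against 0.23 for Ednra). That of Agtr1a was 0.13 on probe set 1384240_at and 0.23 on probe set 1369291_at. Among marker lists after 48 h, 8 of 10 macrophage markers were lower (median -0.53, summed intensity 3571 to 4425 in stretched cells and 6433 to 7332 in controls), as were the 8 endothelial and 6 fibroblast markers given above. Their part in the Ednra result was not tested.

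**Figure D4:**
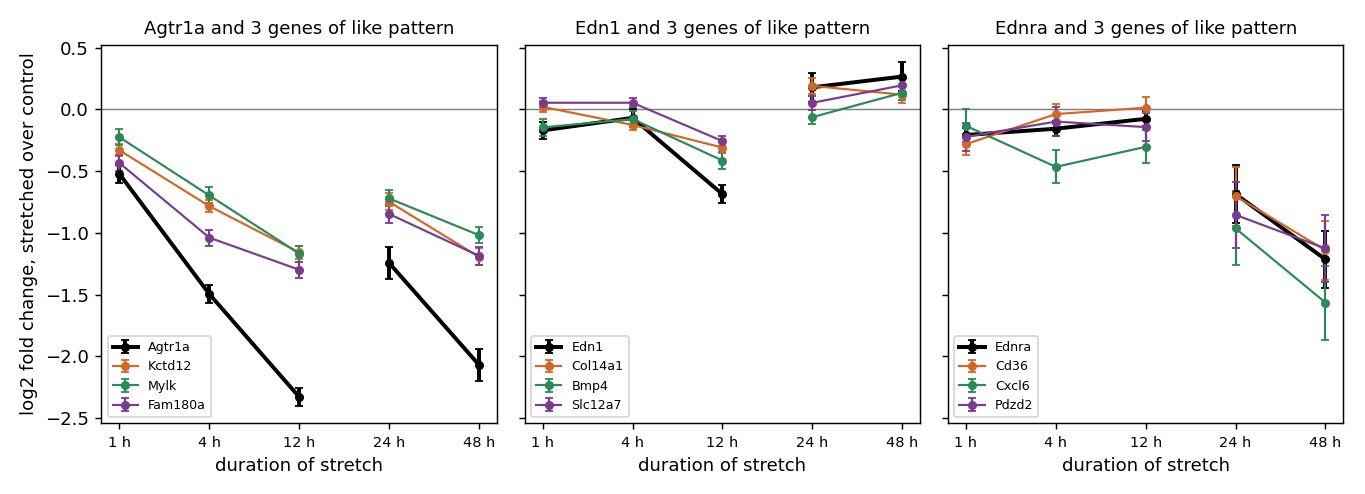
Log2 fold change of stretched over unstretched NRVMs with its standard error (y axis) at each duration of stretch (x axis) for Agtr1a, Edn1 and Ednra (black) and for the 3 genes that correlated most closely with each over 35 arrays (colours). Lines join times of 1 set. The points of Agtr1a lie below those of its 3 neighbours at every time.

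Ace, the enzyme that makes angiotensin II and degrades bradykinin, gave unequal readings on its 2 probe sets. The brightest, 1387791_at, read 174, 141, 164, 156 and 139 after 12 h and 165, 158, 168, 164 and 164 in controls. These groups overlapped, and the change was not past the test (log2 fold change -0.09, interval -0.21 to 0.04, adjusted p = 0.298). Probe set 1370028_at read 87.5, 82.5, 96.0, 93.0 and 90.5 after 12 h and 118, 118, 119.8, 111 and 122 in controls, with no overlap, at 0.76 of control (log2 fold change -0.39, SE 0.057, adjusted p = 1.55e-05). Neither probe set passed the test at 1, 4, 24 or 48 h.

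After 48 h both Ace probe sets had values below 0, at -0.19 (interval -0.36 to -0.03, adjusted p = 0.0693) and -0.20 (interval -0.39 to -0.00, adjusted p = 0.112). The brightest read 169.8, 158, 177, 158 and 143 after 48 h and 177, 198, 158, 179 and 212 in controls, with overlap. It passed the test without control replicate 3 (-0.25, adjusted p = 0.0185) or 48 h replicate 3 (-0.23, adjusted p = 0.0471). Its 12 h level was below its 4 h level by a margin that just passed (12 h over 4 h, log2 fold change -0.19, SE 0.058, adjusted p = 0.0477) and that did not pass in most fits with 1 array left out. On probe set 1370028_at all 12 h arrays lay below those of 4 h and of 1 h. Both steps passed there (12 h over 4 h, log2 fold change -0.26, SE 0.057, adjusted p = 0.00508 and 12 h over 1 h, -0.29, SE 0.057, adjusted p = 0.000674).

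Ece1, which makes mature endothelin-1, stayed within a narrow range. Its probe set 1367801_at read 387 to 481 in stretched cells and 401 to 461 in controls of set I, and 361 to 443 in stretched cells and 353 to 473 in controls of set II. The log2 fold changes lay between -0.05 after 24 h and 0.06 after 1 h, and the 95% intervals over the 5 times between -0.22 and 0.17 (adjusted p = 0.566, 0.56, 0.719, 0.732 and 0.831). A change of 1.5-fold lay outside these intervals at every time.

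Agt was dim and also passed the test at no time. Probe set 1387811_at read 41.7, 43.9, 43.8, 42.1 and 42.5 after 12 h and 44.4, 44.3, 44.2, 46.0 and 47.5 in controls. These 2 groups did not overlap, as was the case for 27.9% of all probe sets after 12 h, yet the change was small (log2 fold change -0.08, interval -0.25 to 0.09, adjusted p = 0.517). After 4 h replicates 4 and 5 stood above the rest (42.1, 40.1, 41.8, 60.8 and 53.2), and the groups overlapped (0.05, adjusted p = 0.701). In set II it read 34.5 to 42.4 in stretched cells and 34.8 to 44.7 in controls.

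Agtr2, the receptor often described as opposing the AT1 receptor, was read by 2 dim probe sets, 1369711_at (24.3 to 39.9 in stretched cells and 27.8 to 31.1 in controls of set I) and 1398288_at (12.3 to 18.5 in stretched cells and 14.4 to 17.2 in controls). Neither passed the test at any time. The value furthest from 0 on the brighter one was 0.19 after 48 h (interval -0.01 to 0.39, adjusted p = 0.142), where it read 49.4, 39.5, 50.9, 42.1 and 40.0 in stretched cells and 36.7, 42.9, 34.9, 40.0 and 39.4 in controls, with overlap. On the dimmer one it was -0.21 after 12 h (interval -0.40 to -0.02, adjusted p = 0.0867).

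**Figure D5:**
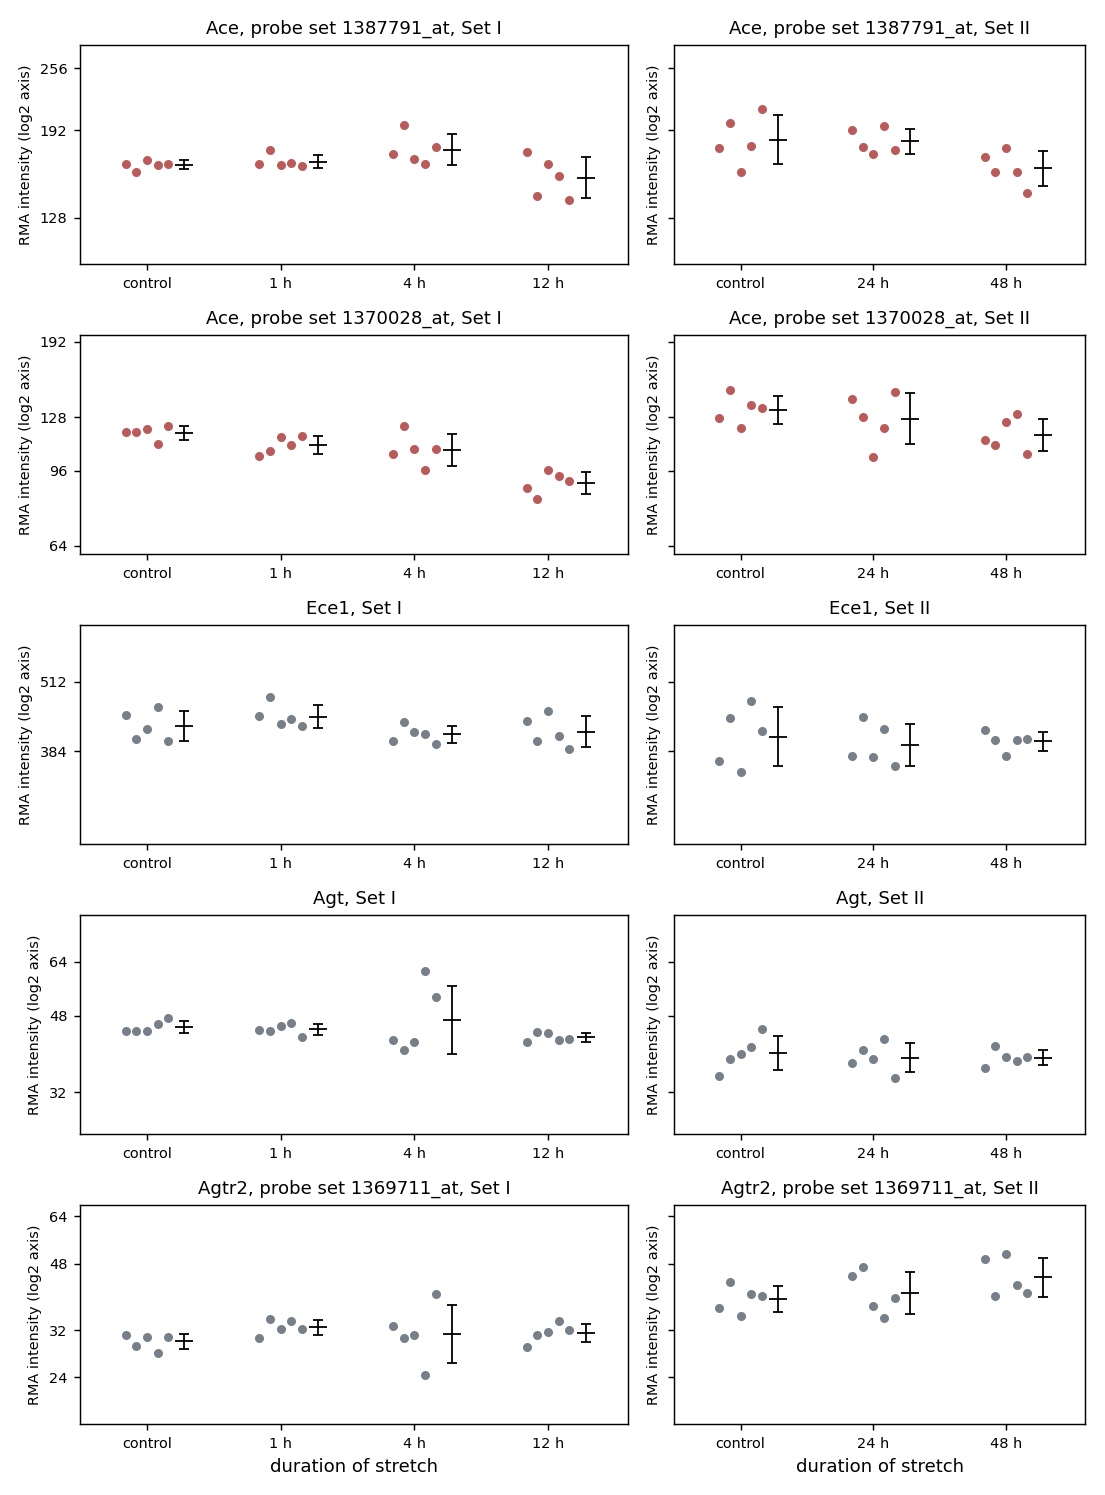
RMA intensity (y axis, log2 scale) in each array by duration of stretch (x axis) for both Ace probe sets, Ece1, Agt and the brighter Agtr2 probe set, set I on the left and set II on the right. Points are arrays and black marks the mean of the log2 values with 1 SD (n = 5). The 12 h arrays of Ace probe set 1370028_at (82.5 to 96.0) lie below its controls (111 to 122). The 12 h arrays of Agt (41.7 to 43.9) lie just below its controls (44.2 to 47.5), and every other stretched group overlaps its controls.

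Further enzymes and receptors of the 2 peptide systems were read from a list of 23 genes, 17 of them with a probe set. After 1, 4, 12, 24 and 48 h, 0, 2, 2, 1 and 4 of the 17 were higher and 2, 5, 3, 2 and 3 were lower, beside 6.32%, 14.2%, 16.3%, 9.14% and 16.9% of all probe sets higher and the shares lower given above. The median log2 fold change of the 17 lay between -0.02 and 0.05. The median over all probe sets lay between -0.0024 and 0.0313.

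Anpep and Enpep, aminopeptidases that trim angiotensins from the amino end, were lower at all 5 times. Anpep (aminopeptidase N) read 335, 280.3, 347, 303 and 298 after 12 h and 488, 471, 479.6, 488 and 458 in controls, and 415, 414, 421, 430.3 and 415 after 48 h and 608, 645, 591, 691 and 630.0 in controls. Its groups were apart at all 5 times, and it was past 1.5-fold after 12 h (-0.61, adjusted p = 5.79e-08) and 48 h (-0.59, adjusted p = 1.09e-07). Enpep (aminopeptidase A, which turns angiotensin II into angiotensin III) read 1083 to 1199 after 12 h and 1443 to 1487 in controls, with log2 fold changes from -0.17 after 1 h (adjusted p = 0.0275) to -0.46 after 48 h (adjusted p = 3.48e-05), and was named after its values were seen.

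Neprilysin (Mme), which degrades several vasoactive peptides, was lower after 12 h, at 41.4, 36.2, 40.7, 34.8 and 38.2 against 65.4, 58.6, 57.9, 64.4 and 63.7 in controls (-0.70, adjusted p = 5.43e-07), and by less than 1.5-fold after 4 h (-0.53, adjusted p = 2.03e-05). After 24 h and 48 h it overlapped its controls (0.00, adjusted p = 0.988 and 0.05, adjusted p = 0.75). Thop1, an endopeptidase that can make angiotensin-(1-7) from angiotensin I, went the other way. It read 218, 204, 182, 168 and 173 after 48 h and 105, 112, 118, 102 and 134 in controls (0.73, adjusted p = 1.92e-05), with no overlap, and was also higher after 24 h (0.64, adjusted p = 0.000232) and, below 1.5-fold, after 4 h and 12 h (0.34, adjusted p = 0.000547 and 0.58, adjusted p = 9.91e-07).

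Behind the receptors, a list of 25 genes of Gq and RhoA signalling and receptor desensitization had 23 with a probe set. After 1, 4, 12, 24 and 48 h, 4, 5, 9, 3 and 5 of the 23 were higher and 3, 7, 6, 4 and 6 were lower. Over all probe sets 6.32%, 14.2%, 16.3%, 9.14% and 16.9% were higher and 7.52%, 15.2%, 16.9%, 9.13% and 16% were lower. The median log2 fold changes of the 23 lay between -0.07 and 0.07. At 1.5-fold or more, Rgs2 was higher at all 5 times and Plcb4 was lower after 12 h. Rgs2 shortens Gq signals by speeding GTP hydrolysis on the G protein. It read 3955, 3902, 3450.3, 3623 and 4006 after 1 h and 1184, 1134, 1124, 1059.9 and 1273 in controls, and the groups were far apart (1.71, adjusted p = 1.68e-13).

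The Rgs2 level remained high after 4 h and 12 h (1.79, adjusted p = 2.69e-13 and 1.89, adjusted p = 1.38e-13). In set II it read 2479, 2737, 2533, 2667 and 2607 after 24 h and 3378, 4696, 3238, 2533 and 4177 after 48 h, and 1187, 1083, 1136, 1152 and 1262 in controls (1.16, adjusted p = 1.38e-05 and 1.60, adjusted p = 6.19e-08). Plcb4, a phospholipase C isoform that Gq activates, read 989.7, 897, 979, 894 and 916 after 12 h and 1343, 1442, 1444, 1436 and 1430.2 in controls (-0.60, adjusted p = 5.15e-09), and was lower by less than 1.5-fold at the other 4 times, from -0.23 after 1 h to -0.57 after 48 h. Agtr1a was lower and Rgs2 higher in each of the 5 comparisons, and the 2 were read in the same arrays.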

How the data were processed

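Neonatal rat ventricular myocytes were profiled on 35 Affymetrix whole-genome rat arrays. RMA intensity values, made by the authors in GeneSpring GX, were deposited untransformed. RMA quantile-normalizes arrays, so a shift shared by most genes would not be seen. The values were taken to log2. A spreadsheet had turned 471 values in 427 probe sets into dates. They were read back, 413 of them falling between the lowest and highest value of the remaining arrays, and none belonged to the genes described. The 57 array controls among 31099 probe sets were not tested.

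Each set was fitted alone in limma 3.58.1 (R 4.3.3) with 1 mean per group and moderated variances, first tested on simulated data. An unmoderated one-way variance, as in the paper's methods, was run as an alternative. Calls required an adjusted p under 0.05, and were also counted at 1.5-fold. No correction was made over the 9 comparisons together. Precision is limited by 5 arrays a group. The annotation gives 1 gene to 20826 probe sets, several to 436 and none to 9780. Names are the platform annotation's, Ednra apart, and a gene was represented by its brightest probe set.

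The named genes were all members, up to 4 pathway genes with the largest change past an adjusted p of 0.05 and 1.5-fold, and the 3 genes most like each changed member. The members, lists and rules were chosen with earlier results of these data known. Alternatives covered the variance model, array scaling, a filter on dim probe sets, the replicate number as a block, array weights, probe set choice, 1 joint fit, the read-back values and leaving out each array. Python 3.11.15, pandas 2.3.3, numpy 2.4.6 and matplotlib 3.10.9 were used. Promoters are RefSeq's (GRCr8), and 7 members had an entry.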

Additional observations from a re-analysis of the deposited data

Results flagged for a closer look

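Of 70 groups of 5 arrays examined for a distant array, 2 held one by Dixon's limit for 5 values, and chance alone gives about 1 in 20. Agtr1a probe set 1384240_at read 828 in replicate 1 of the 24 h group and 563 to 611 in the other 4 arrays. Ace probe set 1387791_at read 175 in replicate 2 of the 1 h group and 163 to 165 in the other 4.

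Several changes differed between times of 1 set by a direct test past 1.5-fold (limma). For Agtr1a these were 4 h over 1 h (-0.97, adjusted p = 2.22e-08 on 1384240_at and -0.85, adjusted p = 4.35e-07 on 1369291_at), 12 h over 4 h (-0.83, adjusted p = 2.3e-07 and -0.78, adjusted p = 1.39e-06), 12 h over 1 h (-1.81, adjusted p = 5.09e-13 and -1.63, adjusted p = 7.16e-12) and 48 h over 24 h on 1384240_at (-0.83, adjusted p = 0.00107). For Edn1 it was 12 h over 4 h (-0.62, adjusted p = 6.3e-06).

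In other cases all 5 stretched arrays lay on one side of the control mean at 1 time and on the other side at another. The log2 fold change of Edn1 was -0.17 after 1 h and -0.69 after 12 h, but 0.18 after 24 h and 0.27 after 48 h. Ace had 0.10 at 4 h and -0.19 at 48 h. These pairs of times belong to different sets, and the difference was not tested.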

How the results depend on the processing

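Over 11 alternatives no called change turned its direction, and Agtr1a remained called at all 5 times, as it did in every fit with 1 array left out. Among the 11, only median centring, quantile normalization, array weights and the mean of a gene's probe sets could alter the fold changes of these genes. The rest left the fold changes as they were and could move only the adjusted p, so they could not turn a direction. Of the 693 values of single genes in these alternatives, 665 stayed on their side of the threshold, 22 newly passed and 6 no longer passed, and with 1 array left out 1121 stayed, 12 passed and 22 did not. A change of sign with no call in either fit, which occurred 40 times, was not counted.

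The count of called genes at 4 h became 2, with Ednra lower, under quantile normalization, without the dimmest 25% of probe sets, with the intensity trend and robust prior, with 1 probe set per gene and with the mean of a gene's probe sets. The count at 24 h, with and without the 1.5-fold limit, became 2, again with Ednra, without the dimmest 25%, with array weights, with 1 probe set per gene, with the mean of probe sets and in the joint fit of both sets. The joint fit also gave 1 gene at 1 h (Ednra lost), 4 genes at 48 h (Ace lower and Edn1 higher added) and 2 genes for 48 h over 24 h. Edn1 at 48 h passed after median centring (0.32, adjusted p = 0.0406), with array weights (0.32, adjusted p = 0.0342) and in the joint fit (0.27, adjusted p = 0.0321), and over all 11 alternatives its adjusted p ranged from 0.0321 to 0.15. Edn1 at 1 h passed with array weights (-0.17, adjusted p = 0.0418). Ace passed with the mean of its 2 probe sets at 12 h (-0.24, adjusted p = 4.82e-04), at 48 h (-0.19, adjusted p = 0.0388) and for 12 h over 1 h (-0.20, adjusted p = 0.00363), and at 48 h also with 1 probe set per gene (-0.19, adjusted p = 0.0492) and in the joint fit (adjusted p = 0.0237). Ace for 12 h over 4 h was lost after median centring, with array weights, with the robust prior and in the joint fit (adjusted p = 0.0853, 0.0705, 0.0532 and 0.099). Over all 11 alternatives the adjusted p of this step ranged from 0.0038 to 0.099. The cause of these shifts was not tested. With 1 probe set per gene, 2746, 5579, 5916 and 6231 of 14218 genes were called at 1, 4, 12 and 48 h. The fit over all probe sets called 4297, 9121, 10306 and 10209 of 31042, a smaller share at each of these times. With the mean of a gene's probe sets, 2552, 5415, 5774 and 5974 of 14218 were called, also a larger share than over all probe sets. At 1.5-fold with 1 probe set per gene, 188, 507, 582, 477 and 1294 of 14218 genes were called at 1, 4, 12, 24 and 48 h. Over all probe sets the counts were 407, 953, 1313, 904 and 2316 of 31042.

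With the replicate number as a block, the count became 2 at 4 h without the 1.5-fold limit, and 2 at 24 h with and without that limit. Ednra was the gene added at both times (adjusted p = 0.0383 and 0.0482). Ace for 12 h over 4 h no longer passed (adjusted p = 0.074), and no other call of these genes changed. The arrays shared only a number: the correlation of same-numbered arrays' deviations lay between -0.30 and 0.34 (set I) or -0.39 and 0.54 (set II), and 5 of 20 and 5 of 15 arrays were closest to one of their own number.

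Leaving out each array in turn gave between 1 and 2 called genes after 1 h, 4 h or 24 h, 2 after 12 h, and between 2 and 3 after 48 h. At 1.5-fold the counts were 1 to 2 at 24 h. For 12 h over 4 h they ranged from 2 to 3, or from 1 to 2 at 1.5-fold, where Edn1 dropped out without 4 h replicate 3 or 12 h replicate 4. For 12 h over 1 h they were 2 to 3, and for 48 h over 24 h 1 to 2, also at 1.5-fold.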
